A study of Gallus gallus with 6 samples.

Results

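Melanin pigment and melanocyte genes were followed in RNA-seq libraries of cloacal skin from 6 Ma-Huang chickens, a commercial pure line of yellow-skinned broilers. The 10 genes named at the outset (TYR, TYRP1, DCT, PMEL, GPR143, MITF, MC1R, ASIP, SLC45A2 and EDNRB2) were chosen by their NCBI chicken symbols among the 18315 genes of the deposited tables, and all 10 were found. Their NCBI Gene IDs are 373971 (TYR), 395913 (TYRP1), 395775 (DCT), 396007 (PMEL), 418652 (GPR143), 395886 (MITF), 427562 (MC1R), 419147 (ASIP), 431665 (SLC45A2) and 373909 (EDNRB2). To them were added 75 genes of melanosome proteins, melanocortin, endothelin and KIT signals, lineage factors and melanosome traffic. The birds formed the s_light group, 3 birds of low cloacal yellowness (s_light6575, s_light6971 and s_light8275), and the s_deep group, 3 birds of high cloacal yellowness (s_deep6402, s_deep6403 and s_deep7858). Each library came from 1 bird and is called by its label. The birds were picked from a flock for their yellowness, were of 1 age and shared their feeding, and no treatment is described for either group. The piece of skin was taken whole, with the subcutaneous fat scraped off, so that a library mixes epidermis, dermis, any feather follicle in the piece and what remained of fat and muscle. In such bulk tissue fewer cells of a type and less RNA per cell cannot be told apart.

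Melanin is made by melanocytes, cells of neural crest origin, inside organelles called melanosomes. Tyrosinase (TYR) oxidises tyrosine in the limiting step, tyrosinase-related protein 1 (TYRP1) and dopachrome tautomerase (DCT) act further along the route to eumelanin, and PMEL forms the fibrils on which the pigment settles. The transcription factor MITF drives these genes, MC1R receives the melanocortin made from POMC, and ASIP opposes it. In birds EDNRB2 is the endothelin receptor of migrating melanocytes. Eumelanin gives black and brown colour, whereas the yellow of chicken skin comes from carotenoids of the feed. Much of the melanin of a bird is made in feather follicles and passed to keratinocytes. The comparison of s_light with s_deep asks whether the genes of the melanin route differ between skins that differ in yellowness.

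Values are FPKM, fragment numbers scaled by gene length and by the mapped reads of the library, which allow levels of different genes to be compared. Library totals ran from 471488 to 487585 FPKM in s_light and from 472540 to 488777 FPKM in s_deep. Where 3 values of a group are given, they stand in the order of the birds as listed above. The number of reads behind a value is not given by FPKM, values are rounded to 2 decimals, and how much counting error the low values carry is unknown. Skin was recognised by its keratins, KRT5 being read at between 791.99 and 1133.37 FPKM in s_light and between 769.1 and 1368.81 FPKM in s_deep. Genes of the W chromosome, which only hens carry, split the libraries across the groups: the mean log2(FPKM + 0.1) of 29 such genes was 3.61, 3.38 and 3.62 in s_light6575, s_light6971 and s_light8275, and -1.05, -1.36 and 3.59 in s_deep6402, s_deep6403 and s_deep7858. Sex is thus partly confounded with yellowness in these birds. Where the mean of these W genes (the W score) was a covariate, s_deep7858 was the only s_deep bird at the level of s_light. Such values thus set s_light largely against that bird, and sex and yellowness cannot be told apart by them.

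Of the 10 genes, 7 averaged 0.1 FPKM or more across all birds and were tested. PMEL passed this minimum through its level in s_light only. TYRP1, MC1R and SLC45A2 stayed under it. No gene of the 7 differed between s_light and s_deep by 1 or more on the log2 scale with an FDR of 0.05 or less (limma, Benjamini-Hochberg adjustment over 15900 genes, lowest adjusted p = 0.814), where 0.044% of all tested genes did. None had an unadjusted p under 0.05 either, against 6.45% of all tested genes (without s_light8275, GPR143 did, with an unadjusted p of 0.0201 and an adjusted p of 0.849, limma), and none had groups without overlap, against 10.8%. The median log2 fold change of the 7 genes was 0.44, with 6 of them above 0, beside a median of -0.02 and 46.2% above 0 over all tested genes. PMEL, tested only through s_light, is among the 6. Without s_light6575 the log2 fold change was below 0 for ASIP (-0.56), EDNRB2 (-0.12) and MITF (-0.08). It was above 0 for GPR143 (0.64), DCT (0.20), PMEL (0.15) and TYR (0.09).

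The order of the levels over the 6 libraries put the transcription factor far above the other members, with an enzyme next. MITF had a mean of 22.8 FPKM and DCT one of 3.89 FPKM. They were followed by ASIP (1.46 FPKM), EDNRB2 (0.808 FPKM), GPR143 (0.467 FPKM), TYR (0.375 FPKM), PMEL (0.155 FPKM), SLC45A2 (0.06 FPKM), MC1R (0.02 FPKM) and TYRP1 (0.005 FPKM). The lowest value of MITF (19.09 FPKM) lay above the highest of DCT (4.47 FPKM), and the lowest of DCT (3.27 FPKM) above the highest of ASIP (2.77 FPKM). From ASIP downward every neighbour in this order overlapped the next over the libraries. The median tested gene had a mean of 8.41 FPKM, so that MITF alone among the 10 stood above it.

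**Figure D1:**
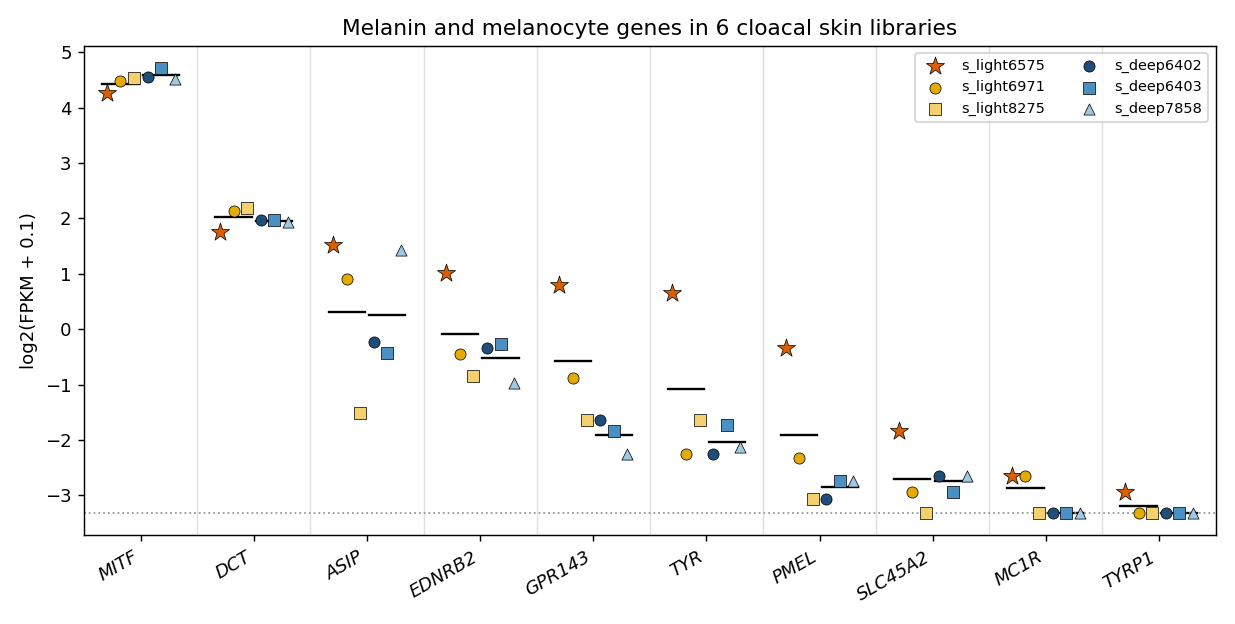
Level of the 10 melanin and melanocyte genes in each library, as log2(FPKM + 0.1) on the vertical axis, with the genes ordered by mean FPKM on the horizontal axis, s_light points left of s_deep points and a bar for each group mean (n = 3 birds each). The dotted line is a value of 0 FPKM. The star, s_light6575, stands above the other 5 libraries for ASIP (by little), EDNRB2, GPR143, TYR, PMEL, SLC45A2 and TYRP1, and below them for MITF and DCT.

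Among the enzymes, TYR was read at 1.48, 0.11 and 0.22 FPKM in the s_light birds, and at 0.11, 0.2 and 0.13 FPKM in the s_deep birds. One s_light library was thus high and the other two lay within or next to the range of s_deep. The log2 fold change was 0.96 (standard error 0.75, 95% interval -0.82 to 2.73), and it was 0.09 (standard error 0.42) without s_light6575. TYRP1 was listed at 0.03 FPKM in s_light6575 and had 0 in the other 5 libraries. DCT followed neither of them: it was read at 3.27, 4.27 and 4.47 FPKM in the s_light birds, and at 3.81, 3.8 and 3.74 FPKM in the s_deep birds. The s_deep libraries were nearly equal, and the lowest and the highest value were both found in s_light. The log2 fold change of DCT was 0.07 (standard error 0.19, 95% interval -0.39 to 0.52).

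Of the melanosome members, PMEL, the fibril protein, was read at 0.69, 0.1 and 0.02 FPKM in the s_light birds, and at 0.02, 0.05 and 0.05 FPKM in the s_deep birds. GPR143, a receptor of the melanosome membrane, was read at 1.63, 0.44 and 0.22 FPKM in the same s_light libraries, and at 0.22, 0.18 and 0.11 FPKM in the s_deep libraries. For GPR143 a second s_light library also stood above s_deep, and the third equalled the highest s_deep value. Its log2 fold change of 1.33 (standard error 0.64, 95% interval -0.18 to 2.84) was the largest of the 7 genes and came to 0.64 (standard error 0.44) without s_light6575. That of PMEL was 0.94 (standard error 0.72, 95% interval -0.76 to 2.64) and 0.15 (standard error 0.45) without that library. SLC45A2, a melanosome transporter encoded on the Z chromosome, was read at 0.18, 0.03 and 0 FPKM in the s_light birds, and at 0.06, 0.03 and 0.06 FPKM in the s_deep birds. Both it and TYRP1 were highest in s_light6575, at levels too low for a test.

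MITF was read at 19.09, 22.32 and 23.19 FPKM in the s_light birds, and at 23.43, 26.13 and 22.85 FPKM in the s_deep birds. Its lowest value was thus found in the library where TYR and PMEL were highest. The groups differed by -0.17 on the log2 scale (standard error 0.12, 95% interval -0.46 to 0.12), which lay between -0.22 and -0.08 with each library left out. MITF is also made by cells other than melanocytes, and FPKM per gene do not part its isoforms.

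Among the receptors and the antagonist, EDNRB2 was read at 1.93, 0.63 and 0.46 FPKM in the s_light birds, and at 0.69, 0.73 and 0.41 FPKM in the s_deep birds. Only s_light6575 stood outside the range of s_deep, and the log2 fold change of 0.44 (standard error 0.53) became -0.12 (standard error 0.39) without it. MC1R was listed at 0.06 FPKM in s_light6575 and s_light6971 and had 0 in the other 4 libraries. ASIP, the antagonist of MC1R, was read at 2.77, 1.77 and 0.25 FPKM in the s_light libraries in the same order, and at 0.75, 0.64 and 2.59 FPKM in the s_deep libraries. Each group held high and low libraries, so that the log2 fold change was 0.05 (standard error 0.86, 95% interval -1.98 to 2.08). Its direction changed with the library left out, between -0.56 without s_light6575 and 0.96 without s_light8275.

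**Figure D2:**
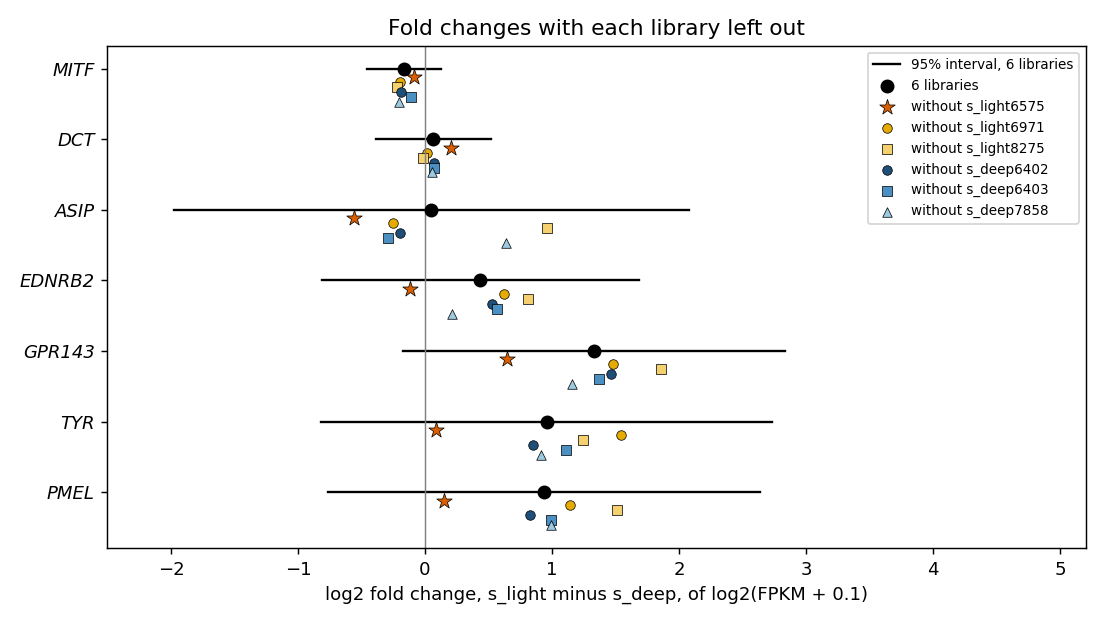
Log2 fold change of the 7 tested genes, s_light minus s_deep, on the log2(FPKM + 0.1) scale. Black points and bars are the estimate and its 95% interval from all 6 libraries, and coloured symbols are the estimates with 1 library left out. All intervals cross 0, and the star, without s_light6575, lies at 0.09 for TYR, 0.15 for PMEL and -0.12 for EDNRB2.

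The values of s_light6575 were set against those of the other libraries for every gene, a comparison chosen after they had been seen and given as a description. In this library 4 of the 7 tested genes reached at least 2 times the highest of the other 5 libraries (and at least 0.1 FPKM), as 1.48% of all tested genes did. PMEL is among the 7 only through its value in this library, and without it the count was 3 of 6. The ratio was 6.90 for PMEL, 6.73 for TYR, 3.71 for GPR143 and 2.64 for EDNRB2. For SLC45A2, under the minimum for a test, it was 3.00. It was 1.07 for ASIP, 0.732 for DCT and 0.731 for MITF. In the other libraries, the share of all tested genes that stood out in the same way lay between 0.384% (s_deep6402) and 0.723% (s_light6971). Of the s_light FPKM summed over the 3 libraries, s_light6575 held 85.2% for PMEL, 81.8% for TYR, 71.2% for GPR143 and 63.9% for EDNRB2.

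Of the 75 added genes, 69 were tested. By the same measure 2 of the 69 stood out in s_light6575, beside 1.48% of all tested genes. Both belong to melanosome traffic. MLPH (melanophilin, which links melanosomes to the myosin motor) was read at 1.25 FPKM in s_light6575, 0.21 FPKM in s_light6971 and 0.1 FPKM in s_light8275, and at 0.03, 0.19 and 0.21 FPKM in s_deep. RAB38, a small GTPase that sorts TYR to melanosomes, was read at 0.59, 0.14 and 0.13 FPKM in the s_light libraries, and at 0.03, 0.2 and 0.19 FPKM in the s_deep libraries. These 2 genes were named after their values had been seen. The partners of MLPH, RAB27A and MYO5A, which many cell types use, were read at 26.81 and 5.5 FPKM in s_light6575, against ranges of 22.1 to 30.62 FPKM and 7.97 to 8.84 FPKM over the other 5 libraries.

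Some markers of feather follicles were also high in this library. Of 11 follicle genes, 5 reached at least 2 times the highest other library in s_light6575, as 1.48% of all tested genes did. SHH, the signal of the feather placode and barb ridge, was read at 6.04, 0.27 and 0.04 FPKM in the s_light birds, and at 0.27, 0.2 and 0.53 FPKM in the s_deep birds. The keratin KRT75L4 was read at 69.9, 1 and 0.07 FPKM in the s_light libraries, and at 0, 0.21 and 10.69 FPKM in the s_deep libraries. KRT75L2, MSX2 and LGR5 were the other 3, with ratios of 6.20, 2.27 and 2.23. KRT75L1 (2101.05 FPKM in s_light6575, against 1105.2 to 2516.08 FPKM in the other 5) and HOXC13 (0.54 FPKM, against 0.15 to 0.89 FPKM) did not stand out, nor did DLX3, PADI3 and FOXN1 (ratios of 1.17, 0.958 and 0.952). KRT75 was lower there than in 3 other libraries, at 0.8, 0.33 and 3.06 FPKM in s_light and 0.2, 2.91 and 2.44 FPKM in s_deep. Summed over the 11 genes, the level was 2511.61, 1136.95 and 2547.27 FPKM in s_light and 2175.28, 1390.99 and 1969.67 FPKM in s_deep, a sum carried by KRT75L1. None of 7 keratinocyte, 6 fibroblast or 4 Schwann cell markers stood out in s_light6575. The library with the next highest KRT75L2 and KRT75L4, s_deep7858, had TYR at 0.13 FPKM and PMEL at 0.05 FPKM. The part of follicle content in the level of the melanin genes was not tested.

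**Figure D3:**
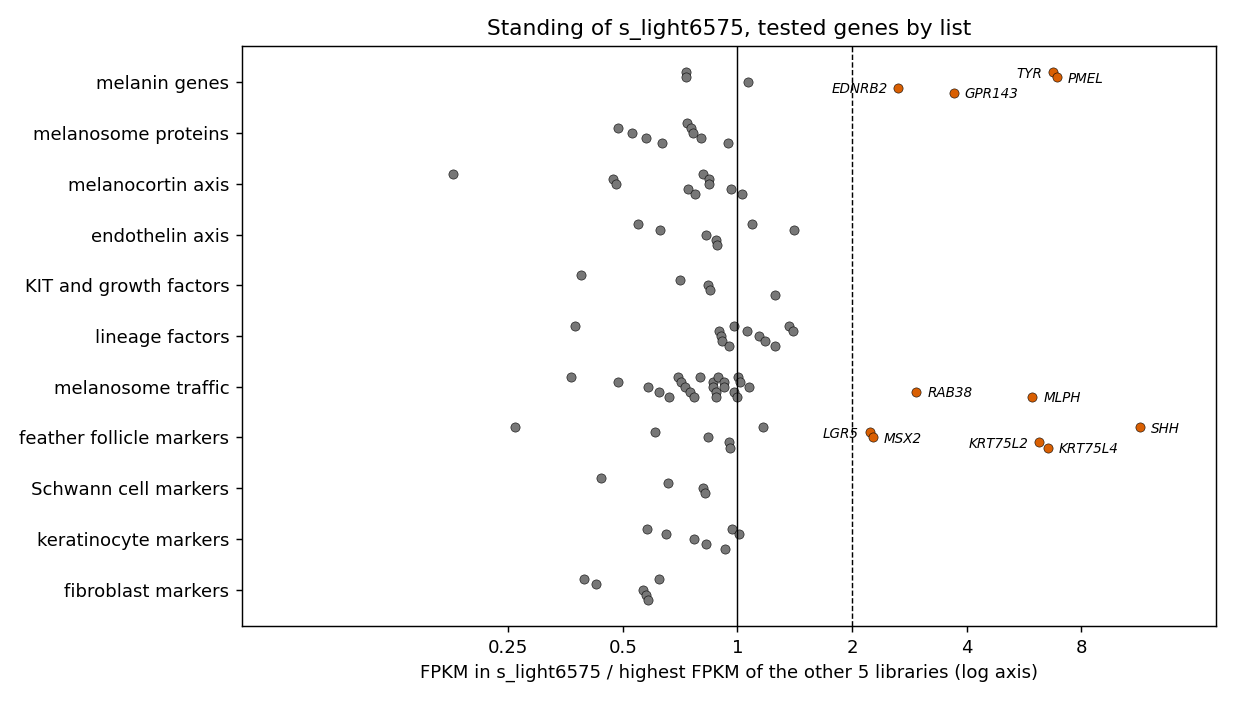
FPKM in s_light6575 divided by the highest FPKM of the other 5 libraries, on a log axis, for each tested gene of the lists, 1 point per gene. SLC24A5, listed at 0 in s_light6575, is not drawn. Labelled orange points reach a ratio of at least 2 (dashed line): 4 melanin genes, 2 genes of melanosome traffic and 5 follicle markers.

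Pearson's r of log2(FPKM + 0.1) with TYR was 0.91 for PMEL, 0.88 for EDNRB2 and 0.86 for GPR143 (exact permutation tests over 6 libraries, p = 0.128, 0.103 and 0.111), and 0.34 for ASIP, -0.68 for DCT and -0.75 for MITF (exact permutation p = 0.553, 0.178 and 0.147). Spearman's rho was 0.25 for PMEL, 0.35 for EDNRB2 and 0.22 for GPR143 (exact permutation p = 0.578, 0.494 and 0.661), and 0.06 for ASIP, -0.35 for DCT and -0.23 for MITF (exact permutation p = 0.933, 0.494 and 0.65). With p-values adjusted over these 6 relations, the lowest was 0.213 for r and 0.793 for rho. The library farthest from the median of TYR was s_light6575, and s_light6971, s_light8275 and s_deep6402 tied for the next place in FPKM. Without s_light6575 alone, r was -0.39 for PMEL, -0.15 for EDNRB2 and -0.29 for GPR143. Without s_light6575 and s_light6971, r came to 0.04 for PMEL, -0.05 for EDNRB2 and 0.29 for GPR143. It came to -0.67 for ASIP, 0.68 for DCT and 0.44 for MITF. With s_deep6402 in place of s_light6971 it was -0.85 for PMEL, 0.066 for EDNRB2 and -0.33 for GPR143, and with s_light8275 -0.068, 0.27 and -0.41. The positive r with PMEL, EDNRB2 and GPR143 thus rested on s_light6575.

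Among all tested genes, 156 (0.981%) had an r of at least 0.9 with TYR. The 10 genes with a symbol closest to TYR were APBA2, SHISA6, GABARAPL1, HIST1H2A4L1, KCNIP2, FAM110A, CYP20A1, MRPS11, KRTAP19-2 and OvoDA1-2, with r between 0.973 and 0.993. PMEL ranked 122 and EDNRB2 ranked 211 of the 15900 tested genes, TYR itself counted as the first. GPR143 ranked 263, MLPH 188 and RAB38 245. AP3D1, another gene of melanosome traffic, ranked 172, though it was read at 30.93 FPKM in s_light6575 against 26.85 to 28.82 FPKM in the other 5 libraries. SHH ranked 325. APBA2 was read at 1.15 FPKM in s_light6575, against 0.29 to 0.45 FPKM in the other 5 libraries. KRTAP19-2, a keratin-associated protein gene, was read at 4.76 FPKM in s_light6575 and listed at 0 in the others. Each of the 10 was highest in s_light6575, which follows largely from their choice by likeness to TYR, itself highest there. KRTAP19-2 and OvoDA1-2, both listed at 0 in the other 5 libraries, passed the minimum for a test through s_light6575 only. So did PMEL and SHISA6, the latter at 0.71 FPKM there and 0.03 to 0.12 FPKM in the other 5.

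The 75 added genes were compared between s_light and s_deep by role. Of the 69 tested, 4 were higher and 3 lower in s_light at an unadjusted p under 0.05 (limma), beside 3.49% of all tested genes that were higher and 2.96% that were lower, and none passed an FDR of 0.05. The groups did not overlap for 4 genes that were higher and 4 that were lower in s_light, where 5.36% and 5.48% of all tested genes had such groups. AGRP and HPS4, both among the 4 that were higher at an unadjusted p under 0.05 (limma), had groups that overlapped. AGRP had passed the minimum for a test through its level in s_light only. The median log2 fold change of the 69 genes was -0.05. Single birds bore on these counts, and without s_deep6403 the number at an unadjusted p under 0.05 was 1. It was 4 without s_light8275, and 2 with the score of W genes as a covariate. Of those 2, FOXD3 also had such a p without the covariate, and SLC7A11 did not.

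**Figure D4:**
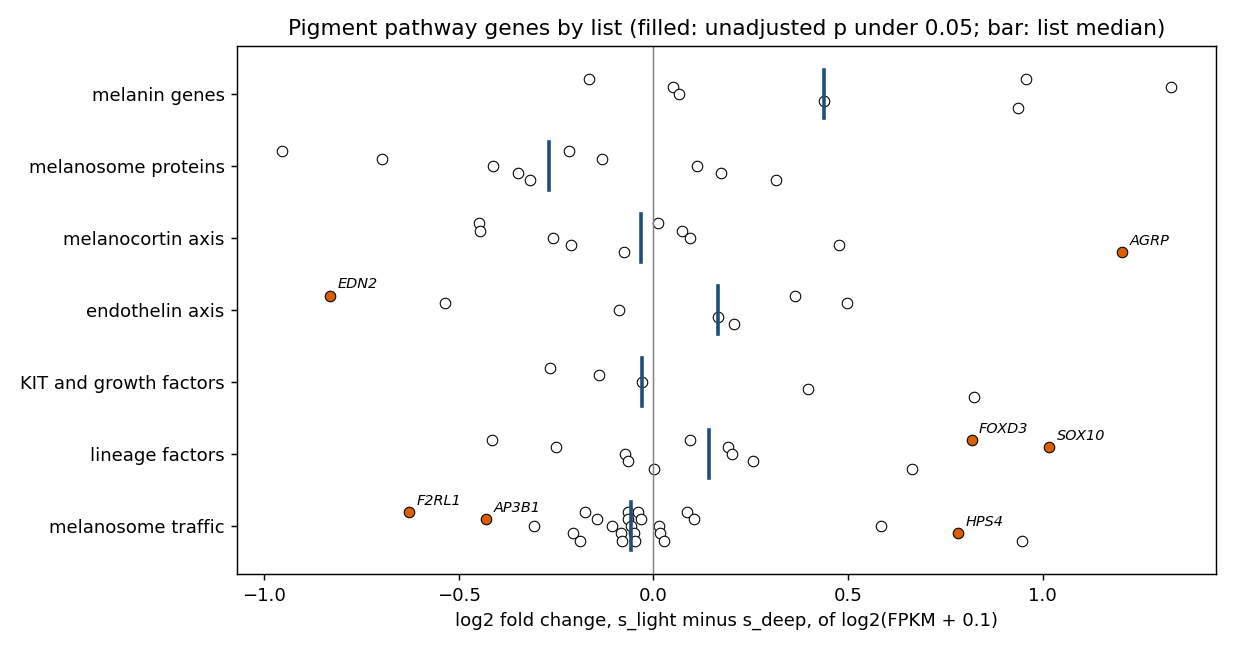
Log2 fold change, s_light minus s_deep, on the log2(FPKM + 0.1) scale, for each tested gene by list, 1 point per gene. Filled points with a name have an unadjusted p under 0.05 (limma), and bars mark the list medians, which run from -0.27 for melanosome proteins to 0.44 for the melanin genes. No point passed an FDR of 0.05.

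Lineage factors held the lowest p of the pathway. SOX10, a neural crest factor kept by melanocytes and Schwann cells, was read at 5.08, 4.42 and 5.18 FPKM in the s_light birds, and at 3.11, 1.66 and 2.54 FPKM in the s_deep birds. Every s_light library stood above every s_deep library, and the log2 fold change was 1.02 (standard error 0.26, unadjusted p = 0.00585, adjusted p = 0.467, limma). Unlike TYR and PMEL, it was no higher in s_light6575 than in s_light8275, and its log2 fold change was 0.99 without s_light6575 (standard error 0.32, unadjusted p = 0.0231, limma). With each library left out the log2 fold change stayed between 0.78 and 1.21, and with the W score as a covariate it was 0.88 (unadjusted p = 0.0577, limma). FOXD3, a factor of neural crest and early Schwann cells that holds back melanocyte fate, was read at 3.97, 3.16 and 3.01 FPKM in s_light, and at 2.67, 1.52 and 1.58 FPKM in s_deep. Its log2 fold change was 0.82 (standard error 0.28, unadjusted p = 0.022, adjusted p = 0.673, limma), again with groups that did not overlap. Without s_light6575 it was 0.70 (unadjusted p = 0.0785, limma). With the W score as a covariate it was 1.01 (unadjusted p = 0.0444, adjusted p = 0.79, limma).

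Some markers of Schwann cells and smooth muscle were also higher in s_light. The Schwann cell list was shortened to 4 markers after its values were known, so only values are given for it. MBP, a protein of myelin, was read at 17.04, 12.68 and 25.91 FPKM in s_light, and at 7.41, 5.95 and 6.52 FPKM in s_deep. CDH19, a cadherin of the Schwann cell lineage, was read at 5.85, 7.22 and 5.26 FPKM in s_light, and at 4.02, 3.38 and 2.44 FPKM in s_deep. Both were higher in every s_light bird than in any s_deep bird. S100B, a calcium-binding protein, was read at 0.32, 0.52 and 0.73 FPKM in s_light, and at 0.29, 0.24 and 0.16 FPKM in s_deep. ERBB3, the neuregulin receptor of the lineage, was read at 9.93, 8.44 and 12.08 FPKM in s_light, and at 10.3, 10.23 and 8.24 FPKM in s_deep, groups that overlapped. Summed over the 4 markers, the level was 33.14, 28.86 and 43.98 FPKM in s_light and 22.02, 19.8 and 17.36 FPKM in s_deep, and no marker was at 0 in any library.

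Of 5 smooth muscle markers, 4 were higher in s_light at an unadjusted p under 0.05 (limma), as 3.49% of all tested genes were, and ACTA2, an actin, had a log2 fold change of the other sign, -0.32 (standard error 0.26). Their sum was 3156.09, 2566.63 and 5224.21 FPKM in s_light and 1051.26, 2121.18 and 1487.38 FPKM in s_deep. Of 5 adipocyte markers, 3 were higher at that p, and ADIPOQ (adiponectin) differed by -0.35 on the log2 scale (standard error 0.24). Of 5 endothelial markers 1 was lower in s_light, where 2.96% of all tested genes were, and none of 3 leukocyte, 7 keratinocyte or 6 fibroblast markers passed that p. Of 11 follicle markers 2 (PADI3 and LGR5) were higher in s_light at that p, as 3.49% of all tested genes were, and 9 did not pass it. Both had groups that did not overlap, as 5.36% of all tested genes did in that direction. The part of nerve or muscle content in the level of SOX10 and FOXD3 was not tested.

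**Figure D5:**
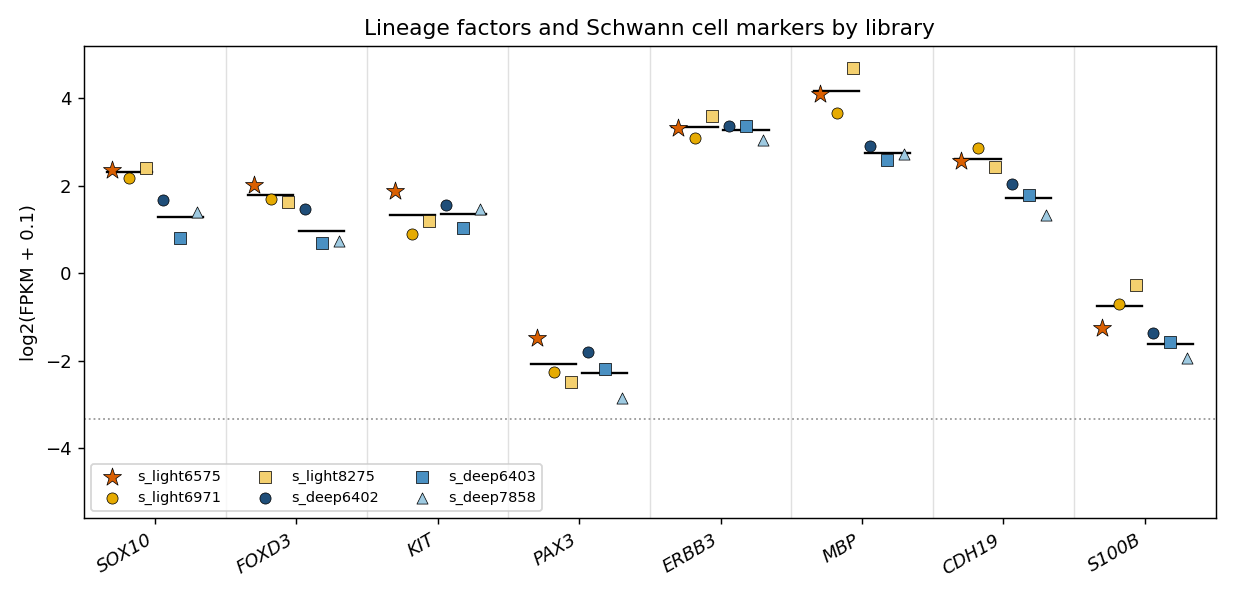
Level of SOX10, FOXD3, KIT, PAX3 and 4 Schwann cell markers in each library as log2(FPKM + 0.1), s_light points left of s_deep points, with a bar for each group mean (n = 3 birds each). The groups do not overlap for SOX10, FOXD3, MBP, CDH19 and S100B, and they overlap for KIT, PAX3 and ERBB3.

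Other factors of the lineage showed no such separation. PAX3, which acts with SOX10 on MITF, was read at 0.26, 0.11 and 0.08 FPKM in s_light, and at 0.19, 0.12 and 0.04 FPKM in s_deep. SNAI2, a factor of migrating neural crest that dermal cells also make, was the highest of the list at 215.97, 241.33 and 188.27 FPKM in s_light, against 173.62, 237.41 and 237.28 FPKM in s_deep. Of the 12 lineage factors, 2 had an unadjusted p under 0.05, both higher in s_light, and 10 did not, beside 3.49% of all tested genes that were higher at that p.

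KIT, the receptor that melanocytes need to survive and which mast cells also carry, was read at 3.59, 1.78 and 2.21 FPKM in the s_light birds, and at 2.86, 1.97 and 2.68 FPKM in the s_deep birds. It was highest in s_light6575, at 1.26 times the next library, and its log2 fold change was -0.03 (standard error 0.31). Its ligand KITLG was read at 1.78, 1.52 and 0.99 FPKM in s_light, and at 1.33, 1.44 and 2.52 FPKM in s_deep. HGF, a growth factor for melanocytes, was read at 0.93, 2.39 and 1.08 FPKM in s_light, and at 0.83, 0.74 and 0.6 FPKM in s_deep, groups that did not overlap (log2 fold change 0.82, standard error 0.39, adjusted p = 0.814, limma). MET, the receptor of HGF and the highest gene of this list, was read at 5.02, 5.92 and 5.79 FPKM in s_light, and at 2.94, 4.32 and 5.81 FPKM in s_deep. None of the 5 genes of this group had an unadjusted p under 0.05, beside 6.45% of all tested genes.

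In the endothelin axis, EDN3, the ligand that draws melanocytes, was read at 3.61, 2.17 and 2.24 FPKM in s_light, and at 2.11, 1.47 and 2.56 FPKM in s_deep. It was highest in s_light6575, the library with the highest EDNRB2, and its log2 fold change was 0.36 (standard error 0.31). EDNRB, the other receptor for this ligand, was read at 3.02, 2.76 and 2.4 FPKM in s_light, and at 1.29, 1.92 and 2.72 FPKM in s_deep. EDN2 was the only one of the 7 genes with an unadjusted p under 0.05, beside 6.45% of all tested genes. It was read at 21.79, 10.83 and 13.16 FPKM in s_light, and at 34.72, 29.41 and 17.24 FPKM in the s_deep birds, a difference of -0.83 on the log2 scale (standard error 0.33, adjusted p = 0.754, limma). The 2 high libraries were those in which W genes were low. With the W score as a covariate, which sets s_light largely against s_deep7858, the log2 fold change was -0.28 (unadjusted p = 0.498, limma). EDNRA, the receptor of smooth muscle and fibroblasts, had the highest level of the axis, at 56.84, 56.47 and 63.62 FPKM in s_light and 64.53, 44.71 and 50.12 FPKM in s_deep.

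In the melanocortin axis, the precursor POMC was read at 0.05, 0.05 and 0.28 FPKM in s_light, and at 0.22, 0.16 and 0.16 FPKM in s_deep. AGRP, a relative of ASIP that blocks central melanocortin receptors, was read at 0.12, 0.25 and 0.25 FPKM in s_light, and at 0, 0 and 0.12 FPKM in s_deep. The difference of 1.20 on the log2 scale (standard error 0.50, unadjusted p = 0.0452, adjusted p = 0.766, limma) thus rests on values of at most 0.25 FPKM, and it was 0.47 (unadjusted p = 0.467, limma) with the W score as a covariate. Of the receptors besides MC1R, MC2R, MC3R and MC4R were listed at 0 in all 6 libraries. MC5R, the receptor of skin glands in mammals, was read at 2.79, 5.41 and 3.27 FPKM in s_light, and at 5.94, 4.84 and 4.47 FPKM in s_deep, and so stood far above MC1R per length in every library. CPE, a carboxypeptidase of prohormone processing and the highest gene of the axis, was read at 36.43, 43.29 and 15.32 FPKM in s_light, and at 38.8, 23.52 and 31.08 FPKM in s_deep. AGRP was tested only because of its level in s_light, the group where it was higher. None of the other 9 tested genes of this axis had an unadjusted p under 0.05, beside 6.45% of all tested genes.

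Among the other melanosome proteins, MLANA, a melanocyte protein encoded on the Z chromosome, was listed at 0.08 FPKM in s_light6575 and 0.16 FPKM in s_light6971 and at 0 in the other 4 libraries. OCA2, a channel protein of the melanosome, was read at no more than 0.05 FPKM in s_light and 0.06 FPKM in s_deep. SLC24A5, a melanosome exchanger, was listed at 0 in s_light6575, s_light6971 and s_deep7858, and read at 0.81 FPKM in s_light8275, 0.57 FPKM in s_deep6402 and 0.89 FPKM in s_deep6403. It is thus at 0 in the library with the most TYR. SLC24A5 overlaps MYEF2 in the RefSeq annotation, and strand use in counting is not given in the sources used here. Whether its zeros are failed estimates was not tested. CD63, an endosome protein of most cells that also sorts PMEL, was the highest of the list, at 420.22, 385.43 and 405.49 FPKM in s_light and 444.64, 442.22 and 439.27 FPKM in s_deep, groups that did not overlap although the log2 fold change was only -0.13 (standard error 0.11). MFSD12, a lysosome and melanosome transporter, was read at 5.33, 5.02 and 4.35 FPKM in s_light, and at 5.64, 6.07 and 6.65 FPKM in s_deep (log2 fold change -0.32, standard error 0.16). None of the 10 tested genes of this list had an unadjusted p under 0.05, beside 6.45% of all tested genes.

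Genes of melanosome traffic are shared with the lysosomes of most cells, and 22 of the 25 tested had no unadjusted p under 0.05. At that p (limma) 1 was higher and 2 were lower in s_light, beside 3.49% and 2.96% of all tested genes. HPS4, a subunit of a complex that forms lysosome-related organelles, was read at 11, 8.14 and 12.53 FPKM in s_light, and at 8.48, 4.78 and 5.31 FPKM in s_deep (log2 fold change 0.78, standard error 0.26, adjusted p = 0.673, limma). Both genes that were lower in s_light lie on the Z chromosome. AP3B1, a subunit of the adaptor complex that sorts cargo to melanosomes, was read at 12.28, 11.29 and 11.81 FPKM in s_light, and at 17.58, 17.16 and 13.36 FPKM in the s_deep birds. F2RL1, the receptor through which keratinocytes take up melanosomes, was read at 13.38, 13.38 and 15.36 FPKM in s_light, and at 27.59, 22.78 and 16.24 FPKM in the s_deep libraries in that order. In both, the libraries with low W genes, s_deep6402 and s_deep6403, were the highest and s_deep7858 came next. The log2 fold changes were -0.43 (standard error 0.14) for AP3B1 and -0.63 (standard error 0.20) for F2RL1. With the W score as a covariate they were -0.19 and -0.23, values that set s_light largely against s_deep7858. BLOC1S4 had groups that did not overlap, with 25.81, 25.88 and 25.05 FPKM in s_light and 24.56, 23.21 and 23.63 FPKM in s_deep. RAB7A, a general factor of late endosomes, was the highest of the list, at 105.39 to 121.7 FPKM in s_light and 112.83 to 127.27 FPKM in s_deep.

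Set side by side, the 8 melanocyte markers (TYR, TYRP1, DCT, PMEL, MLANA, SLC45A2, KIT and SOX10) summed to 14.4, 10.87 and 12.1 FPKM in the s_light birds, and to 9.97, 7.71 and 9.2 FPKM in the s_deep birds. DCT, KIT and SOX10 carried these sums. Of these 3 only SOX10, which Schwann cells also keep, had groups that did not overlap. The log2 fold change was 0.07 for DCT and -0.03 for KIT. The markers that were not in those 3 were at most 0.22 FPKM in every library other than s_light6575. TYRP1 was at 0 in 5 libraries, MLANA in 4 and SLC45A2 in 1.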

How the data were processed

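RNA-seq libraries of cloacal skin from 3 s_light and 3 s_deep birds were analysed, grouped by the labels, with no bird in both groups. The authors removed adaptors, low-quality and rRNA reads, aligned single-end reads to Gallus_gallus-5.0 and deposited FPKM per NCBI Gene ID, rounded to 2 decimals. The methods name TopHat, and the submitters' processing notes list HISAT2 version 2.0.4, Bowtie2 version 2.2.5, RSEM version 1.1.12 and DESeq2 version 1.4.5. Read counts were not used here. Among low values, 21.0% of 329 ratios between libraries (smallest value at least 0.2 FPKM) lay within 0.1 of a whole number. The reads behind single values were therefore not recovered, and genes with a smaller lowest value did not enter this check.

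Symbols and chromosomes came from the RefSeq table of GRCg7b, which matched 83.5% of the IDs and 86.8% of those tested. It is not the authors' assembly, and its coordinates entered no test. In it TYR overlaps other gene models.

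Genes averaging 0.1 FPKM or more (15900 of 18315) were fitted by limma (version 3.58.1, under R version 4.3.3, intensity trend, no covariate) on log2(FPKM + 0.1), taking s_deep from s_light, and p-values were adjusted by Benjamini-Hochberg over all of them. This scale understates changes of low genes. The study's count-based test could not be run on FPKM. Calls needed a change of 1 or more on the log2 scale in either direction and an FDR of 0.05 or less, which is one of the thresholds the methods state. A stricter adjusted p that they also state was not used here. The paper reports TYR, PMEL and GPR143 as differing between the groups by its own test, and qPCR that matched its RNA-seq. The test was tried on simulated data, whose outcome is not given here. Its power for changes of the size seen in the melanin genes was not assessed. Correlations used exact permutations (720) in Python version 3.11.15 with scipy version 1.17.1.

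Members and lists were chosen with earlier results of these data known. Named were the 10 melanin genes, the added genes with an unadjusted p under 0.05, groups without overlap or the highest mean of their list, 11 partners of melanin genes, and the 10 genes most like TYR. The Schwann cell list was shortened to 4 markers after its values were known, and the others are not reported here. RAB38, MLPH, RAB27A, MYO5A, MC5R, AP3D1, SLC7A11 and the single markers were picked with their values in view. The labels give separate birds but not how they relate, so p-values measure the spread between these birds.

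Alternatives were quantile normalization, scaling by median of ratios, a pseudocount of 1 or 0.01, all genes or those averaging 1 FPKM or more, no trend, the mean log2 level of 29 W genes (mean of at least 1 FPKM) as a covariate, and each library left out. The r with TYR without s_light6575, alone or with s_deep6402 or s_light8275, was added after seeing the data.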

Additional observations from a re-analysis of the deposited data

How the results depend on the processing

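No paired analysis was possible because no replicate number is shared between the groups. Of 412 log2 fold changes of 30 named genes under the alternatives, 390 kept their direction and their side of the FDR threshold, and 22 in 9 genes changed direction without passing it. With the W score as a covariate, s_light is set largely against s_deep7858. The log2 fold change was then -1.07 for ASIP, 0.98 for SLC24A5, -0.030 for MET and -0.12 for SNAI2. Under quantile normalization it was -0.052 for ASIP and -0.079 for SNAI2. With each library left out it ran from -0.017 to 0.20 for DCT, -0.56 to 0.96 for ASIP, -0.12 to 0.81 for EDNRB2, -0.30 to 0.18 for KIT, -0.43 to 0.0075 for KITLG, -0.094 to 0.44 for PAX3 and -0.15 to 0.094 for SNAI2. Without s_light6575, r with TYR was -0.39 for PMEL, -0.29 for GPR143, -0.15 for EDNRB2, 0.32 for DCT, 0.57 for MITF and -0.74 for ASIP, each of the opposite sign to the value over all 6 libraries. With s_deep6402 left out as well it was -0.85 for PMEL, -0.33 for GPR143, 0.184 for DCT, 0.62 for MITF and -0.92 for ASIP, and with s_light8275 left out instead -0.068 for PMEL, -0.41 for GPR143, 0.93 for MITF and -0.47 for ASIP.

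Over all tested genes, 7 passed the FDR and fold thresholds, against 3 with the W covariate, 12 with median-of-ratios scaling, 11 with a pseudocount of 1, and 0 to 69 with each library left out. The highest count came without s_deep7858. Of the melanin genes, 0 had an unadjusted p under 0.05 under every alternative that kept all libraries, and 0 to 1 with each library left out. Of the added genes it was 7, against 2 with the W covariate and 1 to 8 with each library left out. The cause was not tested. The paper gives valid reads for each group, but the number of reads behind each low FPKM was not recovered here. Differences in TYRP1, MC1R, SLC45A2 and MLANA could thus not be assessed.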
